A study of Mus musculus with 10 samples.

Results

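Mammary tumours carried by mice of the strain name MOLF were compared with those of every other named strain, over all genes on the array. The comparison set the 2 arrays with MOLF in the title against the 7 arrays with FVBn (1 array), ILn, LP or NZB (2 arrays each) in the title, out of 10 arrays in the series. The remaining array names no strain and entered no comparison. Biotin-labelled total RNA from each tumour sample was hybridised to an Affymetrix mg_u74av2 oligonucleotide array, which reads a gene through 1 or more probe sets. All groups shared the tissue (mammary tumour of the mammary gland), the sex (female), the age (90 days) and, from the series title, an MMTV-PyMT transgene. There the polyoma middle T oncogene is expressed from the long terminal repeat of a mammary tumour virus, mainly in mammary epithelium. The strain field gives FVB/Nj for every array, so the groups rest on the titles, and whether the mice were inbred or crosses was not given in the sources used here. Titles describe each hybridised sample as a mix, lettered A or B, without saying what was pooled. Nothing in the labels says that A and B came from separate animals, and p-values thus reflect array-to-array spread only, possibly of technical origin.

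MOLF is the name of a wild-derived inbred mouse strain, while FVB, LP and NZB are names of classical laboratory strains. Probes of this array type are short oligonucleotides, so a base that differs between a strain and the sequence used for the design can lower the signal of a probe with no change in RNA, and several probe sets of a gene give separate readings of it. Gene families known to vary between mouse strains include the major histocompatibility complex (MHC), whose class I and class II molecules present peptides to T cells, the interferon-induced GTPases, which restrict intracellular pathogens, and the secreted lipocalins and secretoglobins of saliva, tears and urine, which carry pheromones or take part in scent recognition.

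Values below are log2 intensities after quantile normalization, with a floor at 4.75 (an intensity of 27.0). The 2 MOLF arrays agreed less with each other (Pearson r = 0.868 across probe sets) than the lowest pair among the other arrays without NZB B (0.931), and MOLF A was closer to NZB B (0.927). MOLF A lay more than 2-fold from the mean of the other 7 arrays for 1566 probe sets and MOLF B for 281, of which 112 did so in the same direction on both. The log2 ratio of the 3′ to the 5′ actin control, a sign of RNA or labelling quality, was 0.78 on MOLF A and 0.60 on MOLF B, while FVBn and ILn had 0.22 to 0.28 and both LP and NZB 0.94 to 1.12. The part of these array differences in the results was not tested, and differences without MOLF A are given for the genes named as past the test. The epithelial markers Epcam and Krt8 were above the floor in the MOLF means, at 8.69 and 11.22, and in the means of the other 7, at 9.24 and 11.06.

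MOLF tumours had lower readings of interferon-induced, MHC, skeletal muscle and a secretoglobin gene, and higher readings of cathepsin E, serum amyloid A, a major urinary protein and a few other genes. FVBn B shared the low muscle readings, and its mean over interferon response genes was that of MOLF B to 2 decimals (-0.46). Of 9899 probe sets tested with limma in a model with a mean for each strain name, 41 (0.414%) passed at a Benjamini-Hochberg adjusted p under 0.05, of which 14 (0.141%) were higher in MOLF and 27 (0.273%) lower. For the other strain names with 2 arrays, each against its 7 other arrays, 37 probe sets (0.374%) passed for LP, 31 (0.313%) for ILn and 20 (0.202%) for NZB. Those contrasts use the same 9 arrays. In the MOLF comparison the median difference over all probe sets was 0.01, and 657 probe sets had an unadjusted p under 0.05. Both MOLF arrays lay above the other 7 for 11 of the 14 higher probe sets and below them for 15 of the 27 lower ones. Over all probe sets, both lay above for 2.24% and below for 2.61%. The 2 MOLF arrays differed from each other by a median of 0.20 among the higher and 0.31 among the lower probe sets. Probe sets whose arrays of a strain agree pass more readily, so these medians partly reflect the selection. Over all tested probe sets the SD of the difference between the 2 MOLF arrays was 0.86, and 1983 probe sets differed by more than 2-fold. Of the 14, 2 (that of Map3k1 and 1 with no single gene symbol) were kept by the filter on dim probe sets only through the MOLF arrays, and of the 27, 1 (Bpifb1) was at the floor on both MOLF arrays, so these 3 had to differ to be tested. A fit without MOLF A gave 6 probe sets past the test, 5 of them among the 41, and a fit without MOLF B gave 10, 8 of them among the 41. There were 6 without LP B and 43 without FVBn B. The other arrays, left out in turn, gave 9 (ILn B or LP A), 12 (ILn A), 16 (NZB A) and 21 (NZB B).

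The 5 probe sets of the 41 that also passed without MOLF A were those of Acta1 (difference -2.74), Scgb1b27 (-2.99), Igkv6-23 (-2.55) and Pdxdc1 (3.79) and 1 with no single gene symbol. Another 35 were tested and did not pass, and the remaining one, 103022_at of Map3k1, was not tested there. Among the lower genes that did not pass, the differences without MOLF A were -2.55 for Ifit3, -1.85 for Gbp3, -1.17 for Isg15 and -1.45 for Iigp1 of the interferon list. They were -0.62 for H2-K2, -1.58 for Car6, -2.03 for Bpifb1, -1.07 for Krt19, -0.93 for Ltf and -1.61 for Notch4. The muscle genes had -2.11 (Myh4), -2.31 (Myh1), -1.96 (Myl1), -1.81 (Tnnc2), -2.03 (Pygm), -2.36 (Eno3) and -2.10 (Atp2a1). Among the higher genes they were 2.61 for Mup5, 1.25 for Saa2, 2.22 for C1qtnf1, 2.77 for Bpifa2, 0.79 for Rpl13a, 0.85 for Pglyrp1 and 1.47 for D17H6S56E-5. All 40 tested kept their direction, with 1 MOLF array in the comparison. The 41 were selected on arrays that include MOLF B, so this agreement is largely set by the selection and is not support.

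**Figure D1:**
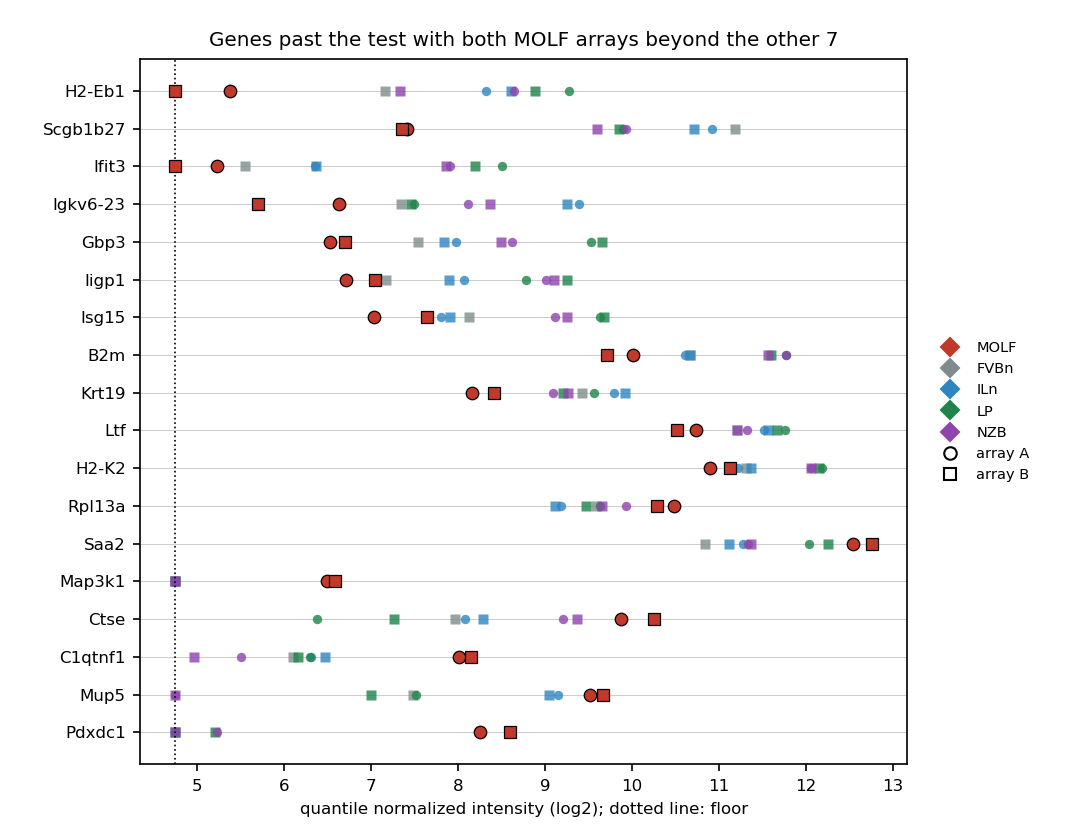
Quantile normalized intensity (log2, horizontal axis) of the 18 named genes that passed the test with both MOLF arrays beyond the other 7 arrays, 1 row per gene, with a point per array coloured by strain name (circle, array A; square, array B) and the floor as a dotted line. The MOLF points of Scgb1b27 sit at 7.41 and 7.36 with the other arrays at 9.59 and above, and those of Pdxdc1 sit at 8.25 and 8.60 with the other arrays at 5.24 and below.

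Interferon signalling induces a set of antiviral genes, many through a promoter element bound by interferon-regulated factors whose core is GAAA, any 2 bases and GAAA. Of 38 interferon response genes tested (54 listed), 4 passed as lower in MOLF and none as higher, and 34 of the 38 had a negative difference. Across all 7098 genes tested, 0.296% passed as lower and 0.113% as higher. The median difference of the list was -0.72, against 0.01 over all genes, and both MOLF arrays lay below the other 7 for 10 of the 38 genes, against 2.72% of all genes. The promoters of the 3 list genes that passed and have an entry in the RefSeq promoter table are shown. That of B2m, which is not in the list, was added by choice. Each sequence is the 250 bases before a start of the gene in the reference genome (GRCm38.p6), in the gene's direction. For a gene with several entries, the first that holds a match is shown, so the display favours matches. The part of this element in the lower readings was not tested. The bases of MOLF mice in these stretches were not analysed. Capitals mark matches to this core on either strand, counted with overlaps. Isg15 lies at chr4:156200819-156201068 (minus strand, 3 matches), Ifit3 at chr19:34583279-34583528 (plus strand, 2 matches), Gbp3 at chr3:142559794-142560043 (plus strand, 2 matches) and B2m at chr2:122147437-122147686 (plus strand, 1 match).
Isg15: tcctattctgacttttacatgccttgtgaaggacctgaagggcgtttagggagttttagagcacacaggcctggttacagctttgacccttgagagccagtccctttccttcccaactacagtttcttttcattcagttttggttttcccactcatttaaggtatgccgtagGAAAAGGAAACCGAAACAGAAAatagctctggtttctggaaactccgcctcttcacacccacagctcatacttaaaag
Ifit3: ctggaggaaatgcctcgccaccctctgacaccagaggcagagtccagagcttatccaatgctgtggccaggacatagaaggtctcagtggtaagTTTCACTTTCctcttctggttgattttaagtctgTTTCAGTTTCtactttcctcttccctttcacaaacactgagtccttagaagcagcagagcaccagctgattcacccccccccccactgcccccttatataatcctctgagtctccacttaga
Gbp3: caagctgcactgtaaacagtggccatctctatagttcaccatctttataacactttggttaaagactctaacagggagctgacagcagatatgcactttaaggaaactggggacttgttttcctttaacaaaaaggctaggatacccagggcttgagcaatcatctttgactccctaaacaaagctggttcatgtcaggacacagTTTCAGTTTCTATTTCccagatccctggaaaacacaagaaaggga
B2m: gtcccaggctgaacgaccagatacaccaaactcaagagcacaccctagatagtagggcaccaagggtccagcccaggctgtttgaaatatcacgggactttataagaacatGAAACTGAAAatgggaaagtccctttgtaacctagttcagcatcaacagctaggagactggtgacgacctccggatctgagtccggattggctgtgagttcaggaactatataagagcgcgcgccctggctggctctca
Such a match lay within this window in 10 of the 32 tested genes of the list with an entry (31.2%), in 3.31% of the tested genes and in 3.46% of all genes of the table. A gene was counted if any of its entries held a match.

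Ifit3, an interferon-induced protein of the cytosolic antiviral response, read 5.23 on MOLF A and was at the floor on MOLF B, while the other 7 arrays ran from 5.56 (FVBn B) over a median of 7.87 to 8.51 (LP A). Both MOLF arrays were below every other array, with FVBn B only 0.33 away. The difference was -2.26 ± 0.27 (SE; adjusted p = 0.0260 by limma), which is 4.79-fold and understated by the reading at the floor. Gbp3, a guanylate-binding GTPase, read 6.53 on MOLF A and 6.71 on MOLF B, against 7.54 (FVBn B), 8.49 and 9.66 (LP B) as the lowest, median and highest of the others. The groups did not overlap, and the difference of -1.91 ± 0.16 (SE; adjusted p = 0.0054) was 3.75-fold. Isg15, a ubiquitin-like modifier, read 7.04 and 7.64 on MOLF A and B, against 7.81 (ILn A), 9.12 and 9.68 (LP B). The MOLF arrays were again the lowest, 0.17 under the nearest array, with a difference of -1.45 ± 0.19 (SE; adjusted p = 0.0293), or 2.74-fold. Iigp1, an immunity-related GTPase, read 6.71 and 7.05, against 7.17 (FVBn B), 8.79 and 9.25 (LP B). It was lower by 1.59 ± 0.19 (SE; adjusted p = 0.0260; 3.01-fold), and its MOLF arrays lay 0.12 below FVBn B.

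The FVBn array was the nearest to MOLF for 3 of these 4 genes, and LP or NZB was the farthest strain mean for each. MOLF minus FVBn was -0.92 for Gbp3, -0.57 for Ifit3 and -0.29 for Iigp1, while MOLF minus LP was -2.98, -3.36 and -2.14. Lgals3bp, a secreted glycoprotein that binds galectin-3, was at 8.08 and 8.18 in MOLF and at 8.66 or above elsewhere, with a difference of -1.07 (adjusted p = 0.0536). Irgm1, a regulator of the immunity-related GTPases, stood at 5.52 (A) and 5.5 (B) in MOLF against 6.29 to 7.55 elsewhere (difference -1.37, adjusted p = 0.193). Irf7, the transcription factor that amplifies type I interferon production, was at 5.25 on MOLF A and at 7.72 on MOLF B, so the arrays disagreed, against 7.79 to 9.80 elsewhere (difference -2.33, adjusted p = 0.286). Another tested Irf7 probe set had a difference of -0.35. Ifi204 was at the floor on both MOLF arrays and above it on all others, at least 2.72-fold (adjusted p = 0.481). The other members below all 7 arrays were Ifi27 (difference -0.30, adjusted p = 0.627) and Irf1 (difference -0.49, adjusted p = 0.638).

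The mean of the list relative to the 9 arrays was -0.74 on MOLF A and -0.46 on MOLF B, against -0.46 on FVBn B, -0.13 and -0.16 on the ILn arrays and 0.20 to 0.69 on the NZB and LP arrays. MOLF B and FVBn B thus had the same list mean to 2 decimals. Without MOLF A the median of the list was -0.41 and no member passed, without MOLF A and NZB B it was -0.44 with none, and without LP A or LP B no member passed either (medians -0.68 and -0.61). With title date as a block the median was -0.61 and none passed, and none passed in the 2 group model (median -0.72) or with median centring (median -0.72). The macrophage list had means of -0.13 (MOLF A) and -0.20 (MOLF B) against -0.15 to 0.21 elsewhere and 0 of 30 genes passing. The T and NK cell list mean was 0.43 on MOLF A and -0.10 on MOLF B, within the range of the other arrays (-0.22 to 0.57), with 0 of 16 genes passing. In these bulk samples, fewer cells of a type and less RNA per cell cannot be told apart, and the part of immune cell content in the interferon result was not tested.

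**Figure D2:**
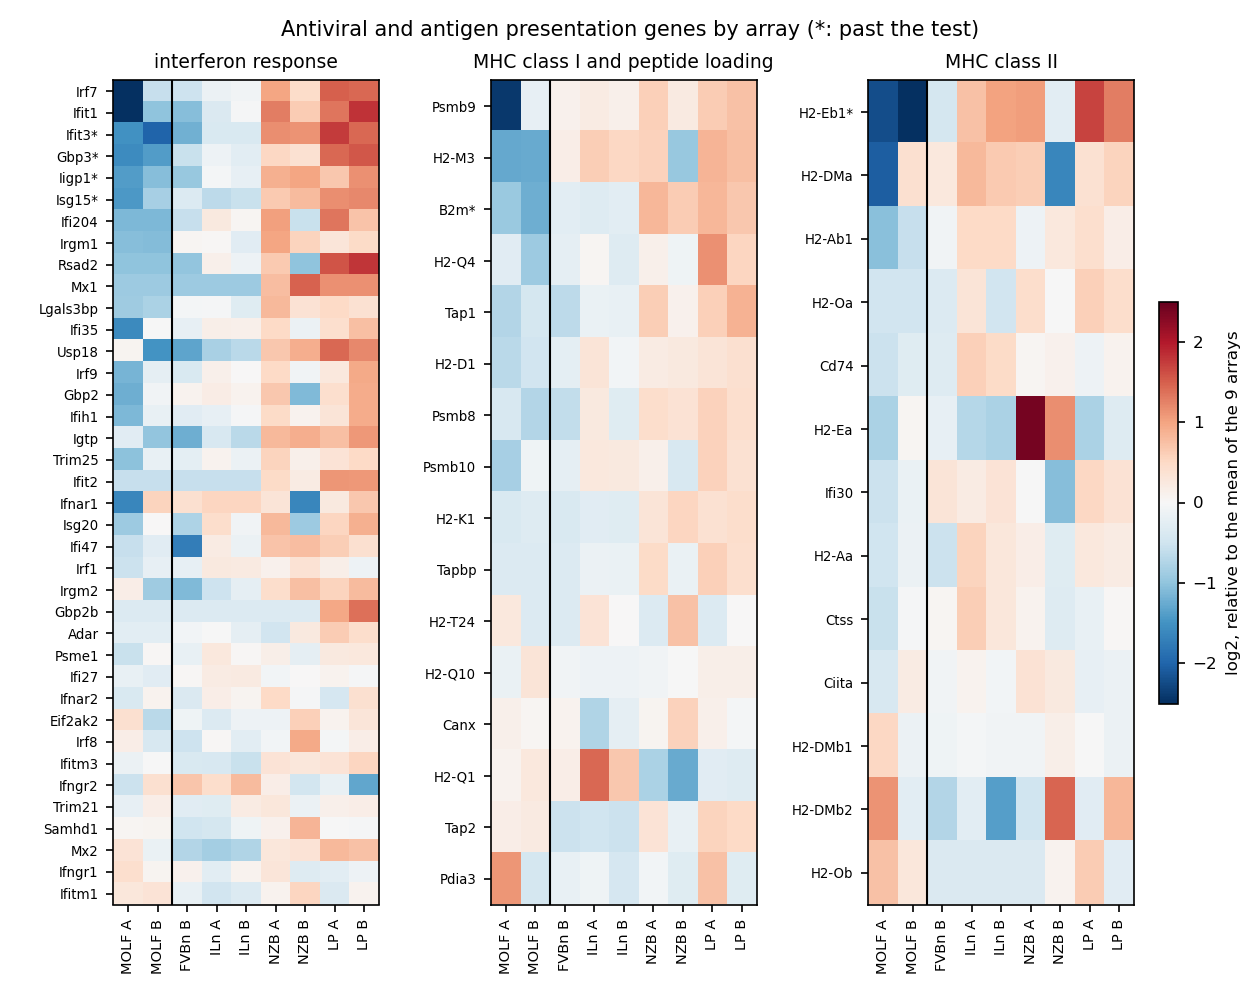
Level of each tested interferon response, MHC class I and MHC class II gene (rows) on each of the 9 arrays (columns; the 2 MOLF arrays stand left of the black line), as the difference from the gene's mean over the arrays (log2, colour scale), with an asterisk for genes past the test. The 4 interferon genes and H2-Eb1 and B2m that passed are blue on both MOLF arrays, and the H2-Eb1 difference is -3.25.

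Class II molecules are pairs of an alpha and a beta chain on antigen-presenting cells. H2-Eb1, the beta chain of the E molecule, read 5.39 on MOLF A and was at the floor on MOLF B, against 7.17 (FVBn B), 8.61 and 9.28 (LP A) as the lowest, median and highest of the others. Both MOLF arrays were 1.78 or more below every other array. The difference was -3.25 ± 0.37 (SE; adjusted p = 0.0209), a 9.52-fold difference that the floor reading understates and the largest negative difference among the 41 probe sets. It was -3.64 without MOLF A and no longer passed, and -3.66 with title date as a block, where it passed. H2-Ab1, the beta chain of the A molecule, read 7.01 and 7.47 in MOLF and 7.92 to 8.54 elsewhere, with no overlap and a difference of -1.04 (adjusted p = 0.164). Cd74, the invariant chain of class II, had a difference of -0.54 (adjusted p = 0.236), and H2-Aa, the partner of H2-Ab1, -0.41 (adjusted p = 0.747). H2-Eb1 did not pass in the 2 group model or with median centring. Of 13 class II genes tested, 1 passed as lower, 2 lay below all 7 arrays and the median difference was -0.45, or -0.14 without MOLF A. H2-Eb1 had 1 probe set on the array, so a change in RNA and a sequence variant under its probes cannot be told apart here.

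B2m, the light chain shared by class I molecules, read 10.01 on MOLF A and 9.72 on MOLF B, against 10.61 (ILn A), 11.57 and 11.77 (NZB A). The MOLF arrays were lowest by 0.60, and the difference of -1.37 ± 0.13 (SE; adjusted p = 0.0096) was 2.59-fold. It was -0.80 against FVBn, -0.78 against ILn, -1.82 against LP and -1.80 against NZB, and -1.52 without MOLF A, where it did not pass. H2-K2, a class I heavy chain gene by the array's annotation, read 10.90 and 11.13, against 11.22 (ILn A), 12.05 and 12.18 (LP A), and was lower by 0.75 ± 0.11 (SE; adjusted p = 0.0489). H2-D1, another class I heavy chain, did not pass, but both of its probe sets had both MOLF arrays below the other 7, with differences of -0.75 and -0.81. H2-K2 and H2-D1 probe sets carry the suffix of sequence families, so heavy chains of near-identical sequence may share their signal. Of 16 class I and peptide-loading genes of a list that does not hold H2-K2, 1 passed as lower (B2m) and 4 lay below all 7 arrays (B2m, H2-D1, H2-M3 and the immunoproteasome subunit Psmb9), with a median difference of -0.53, or -0.42 without MOLF A and with 0 genes passing. None of the 16 passed in the 2 group model or with median centring. The H2-M3 probe set of the list had a difference of -1.63, while another tested probe set of the gene had 0.11. The ratio of the pair did not pass (adjusted p = 0.666 by limma).

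Scgb1b27, a secretoglobin of the androgen-binding protein family found in saliva and tears, passed under more settings than any other probe set. It read 7.41 on MOLF A and 7.36 on MOLF B, against 9.59 (NZB B), 9.93 and 11.18 (FVBn B). The MOLF arrays lay 2.18 below the nearest other array, and the difference was -2.91 ± 0.13 (SE; adjusted p = 0.000303), or 7.54-fold. It passed in 18 of 19 alternative settings, with differences from -3.17 to -2.75, and was -2.99 without MOLF A. The exception was the fit without MOLF A and NZB B, in which no probe set passed. Its only probe set is of the kind that breaks a probe selection rule (suffix r). Scgb1b2, of the same family, had a difference of -0.73 (adjusted p = 0.286).

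Mup5, a major urinary protein that binds pheromones, was high in MOLF. It read 9.51 and 9.66 on MOLF A and B, against 4.75 (both NZB arrays, at the floor), 7.48 and 9.15 (ILn A). The difference was 2.49 ± 0.21 (SE; adjusted p = 0.0054; 5.61-fold), but it was 0.49 against ILn and 4.84 against NZB, so most of it came from strains other than ILn. Mup3 had a difference of 1.39 (adjusted p = 0.309). The only Mup5 probe set carries the suffix of sequence families, so genes of near-identical sequence may share its signal. Of 6 urinary, odorant-binding and secretoglobin genes tested, 1 passed in each direction, with a median of -0.46 that turned to 0.32 with the floor at the 10th percentile.

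Salivary and lacrimal secretory genes differed widely among the other strains, and MOLF lay between them. Bpifa2, the parotid secretory protein, read 11.57 on MOLF A and 11.83 on MOLF B, against 5.38 (NZB B), 7.18 and 13.32 (FVBn B). The groups overlapped: MOLF was 5.25 above LP and 6.0 above NZB, and 1.62 below FVBn and 1.40 below ILn on the log2 scale, and the combined difference was 2.58 ± 0.35 (SE; adjusted p = 0.0366). Car6, the secreted carbonic anhydrase of saliva, read 8.43 and 8.29, against 8.16 (NZB A), 10.14 and 11.25 (FVBn B), with a difference of -1.49 ± 0.21 (SE; adjusted p = 0.0444) and an overlap with NZB. Of 18 such genes, 1 passed in each direction, 2 lay below all 7 arrays and the median was -0.65. Relative to the 9 arrays, MOLF A and B had list means of -0.56 and -0.18, against -1.54 to 2.79 elsewhere, and the part of salivary gland tissue in these values was not tested. Bpifb1, a secreted relative of Bpifa2, was at the floor on both MOLF arrays and both LP arrays, against 8.94 on ILn B as the highest, and was at least 3.97-fold lower (adjusted p = 0.0463, for a probe set that the filter kept through the other strains alone).

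Skeletal muscle genes had the largest shift of a list, and FVBn shared it. Of 35 muscle genes tested, 7 passed as lower and none as higher, 29 had a negative difference, and the median was -1.18. Acta1, the actin of skeletal muscle fibres, read 7.78 on MOLF A and 7.90 on MOLF B, against 7.86 (FVBn B), 11.48 and 11.64 (LP A). The difference was -2.78 ± 0.11 (SE; adjusted p = 0.0002; 6.85-fold), although FVBn B lay between the MOLF arrays: it was -0.02 against FVBn, -2.31 against ILn, -3.72 against LP and -3.68 against NZB. Myh4 and Myh1, myosin heavy chains of fast fibres, had differences of -2.28 (adjusted p = 0.0150) and -2.26 (adjusted p = 0.0148), with MOLF above FVBn by 1.80 and 0.60. Myl1, a myosin light chain, differed by -1.79 and Tnnc2, the calcium-binding troponin of fast fibres, by -1.62, with MOLF above FVBn by 0.65 and 0.42. Pygm, the glycogen phosphorylase of muscle, and Eno3, its enolase, differed by -2.25 and -1.89. The mean of the list was -0.69 on MOLF A and -0.88 on MOLF B, between -1.15 on FVBn B and -0.32 to 1.06 on the other arrays. Both MOLF arrays lay below all 7 others for 1 of the 35 genes, Mb (myoglobin, difference -1.60, with -0.04 for another tested probe set). None passed in the 2 group model, in which the spread between the other strains enters the error, 1 passed with title date as a block and 2 without MOLF A (median -1.15). The part of muscle tissue around the tumours in these values was not tested.

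**Figure D3:**
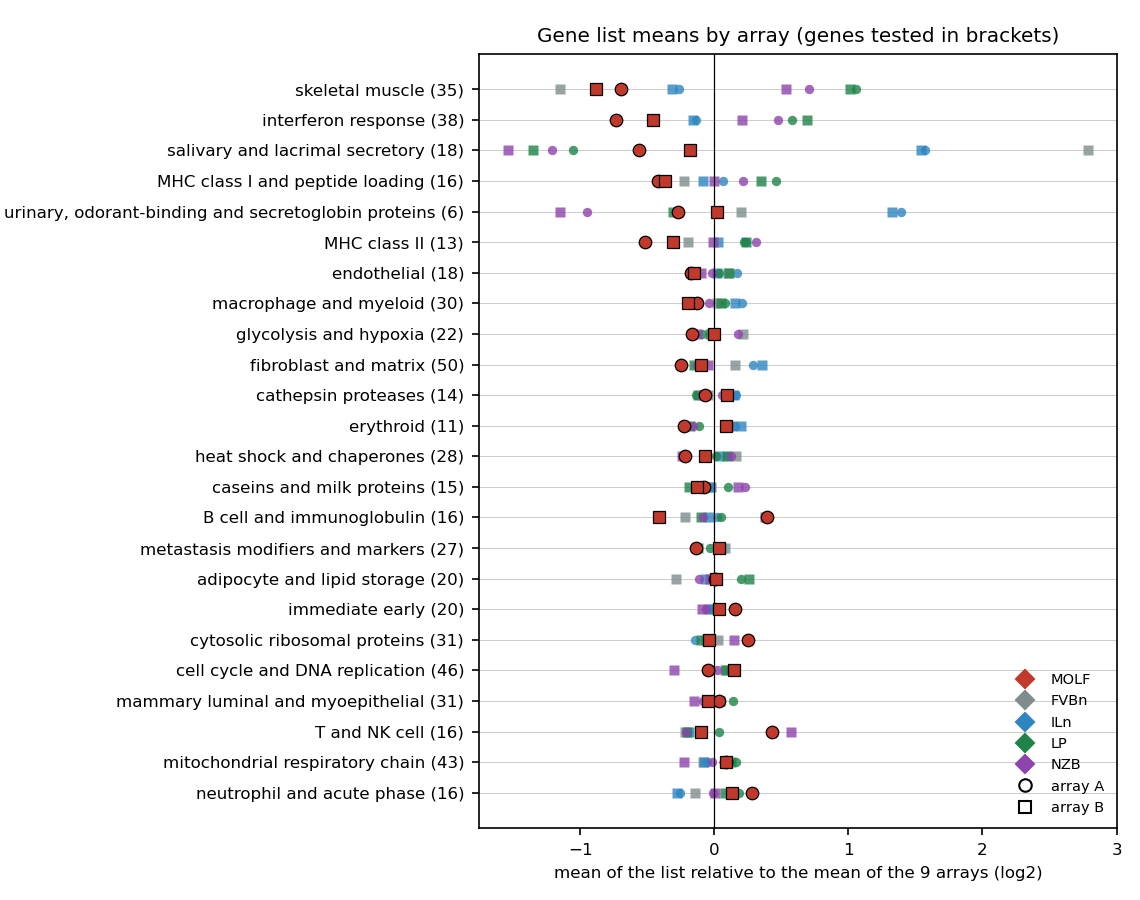
Mean log2 level of each of 24 gene lists on each array, relative to the mean of the 9 arrays (horizontal axis), with the number of genes tested in brackets and a point per array coloured by strain name. The MOLF points of the interferon list sit at -0.74 and -0.46 and those of the muscle list at -0.69 and -0.88, and FVBn lies at -1.15 in the muscle list.

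Ctse, cathepsin E, an aspartic protease of the endosomes, was higher in MOLF by 2 of its 3 probe sets. The probe set 93861_f_at read 10.58 on MOLF A and 10.72 on MOLF B, against 7.94 (LP A), 8.58 and 9.94 (NZB A). The MOLF arrays were the highest by 0.63, and the difference was 1.90 ± 0.16 (SE; adjusted p = 0.0054; 3.74-fold). The probe set 93860_i_at read 9.88 and 10.26, against 6.38 (LP A), 8.08 and 9.37 (NZB B), a difference of 1.99 ± 0.25 (SE; adjusted p = 0.0272). Against NZB the differences were 0.92 and 0.78, the smallest of any strain, and without MOLF A they were 2.00 and 2.21 and neither passed. None of the other 13 cathepsin proteases and inhibitors tested passed, and the list's median was -0.13.

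Saa2, a serum amyloid A protein of the acute phase, read 12.54 on MOLF A and 12.76 on MOLF B, against 10.84 (FVBn B), 11.33 and 12.25 (LP B). The MOLF arrays were the highest by 0.29, with a difference of 1.19 ± 0.12 (SE; adjusted p = 0.0143; 2.28-fold). Another Saa2 probe set, 100333_at, overlapped with LP, at 11.18 and 11.46 in MOLF against 11.28 on LP A and 11.12 on LP B. It did not pass (difference 2.16, adjusted p = 0.286). The Saa2 probe set that passed, 103465_f_at, carries the suffix of sequence families, so related sequences may share its signal. Pglyrp1, a peptidoglycan recognition protein of neutrophil granules, was higher by 0.90 ± 0.11 (SE; adjusted p = 0.0260), but its MOLF arrays (10.39 and 10.27) overlapped with the others (7.97, median 10.25, highest 10.52): MOLF was 2.33 above ILn and -0.18 from LP. Ltf, lactoferrin, the iron-binding protein of milk and neutrophils, went the other way. It read 10.73 and 10.51, against 11.21 (FVBn B), 11.52 and 11.76 (LP A), a difference of -0.84 ± 0.11 (SE; adjusted p = 0.0297) with no overlap. Of 16 neutrophil and acute phase genes, 2 passed as higher and 1 as lower, with a median of 0.25.

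C1qtnf1, a secreted protein with a C1q domain, read 8.01 and 8.15 on MOLF A and B, against 4.97 (NZB B), 6.16 and 6.47 (ILn B). The MOLF arrays stood 1.54 above the next array, with a difference of 2.11 ± 0.29 (SE; adjusted p = 0.0366; 4.30-fold). Rpl13a, a protein of the large ribosomal subunit, read 10.48 and 10.29, against 9.12 (ILn B), 9.58 and 9.93 (NZB A), a difference of 0.87 ± 0.13 (SE; adjusted p = 0.0489). The other 30 cytosolic ribosomal protein genes tested did not pass, and the median of the list was 0.06. Krt19, a keratin of simple epithelia, read 8.16 and 8.41, against 9.09 (NZB A), 9.43 and 9.92 (ILn B). It was below all other arrays by 0.68, with a difference of -1.18 ± 0.15 (SE; adjusted p = 0.0293; 2.26-fold), and was the only one of 31 mammary luminal and myoepithelial genes to pass (list median 0.08). Igkv6-23, a variable segment of the immunoglobulin kappa chain, read 6.64 and 5.71, against 7.34 (FVBn B), 8.12 and 9.39 (ILn A), with a difference of -2.03 ± 0.26 (SE; adjusted p = 0.0297; 4.09-fold). Its MOLF arrays were the lowest, and the B cell list mean differed between them, at 0.40 on MOLF A and -0.41 on MOLF B. The Igkv6-23 probe set carries the suffix of sequence families, so related segments may share its signal.

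Several probe sets of a gene were compared because MOLF is wild-derived. Of the 33 named genes among the 41 probe sets, 22 had a single tested probe set, among them H2-Eb1, Scgb1b27, B2m, Ifit3, Gbp3, Isg15, Mup5 and Acta1. For these the array offers no second reading. Among the 11 genes with 2 or more tested probe sets, all probe sets had the same sign in 8, and a further probe set passed in 1, Ctse. All probe sets differed by more than 1 in 3 genes: Saa2 (1.19 and 2.16), Iigp1 (-1.59 and -1.19) and Atp2a1, the calcium pump of fast muscle fibres (-2.64 and -1.55). The latter probe set of each did not pass (adjusted p = 0.286, 0.310 and 0.253 by limma), and its MOLF arrays overlapped with the others.

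Pdxdc1, a protein with a pyridoxal-dependent decarboxylase domain, gave the largest difference of the 41 probe sets and the clearest disagreement between probe sets. Its probe set 97713_at read 8.25 on MOLF A and 8.60 on MOLF B, while 5 of the other 7 arrays were at the floor and the highest read 5.24 (NZB A). The difference was 3.54 ± 0.28 (SE; adjusted p = 0.0054; 11.6-fold, understated by the 5 arrays at the floor). The probe set 160163_at of the same gene read 6.60 and 7.17 in MOLF, against 6.61, 8.02 and 8.16 as the lowest, median and highest of the others, a difference of -0.92 (adjusted p = 0.735). The probe set 94312_at read 7.76 and 6.63, against 7.06, 7.40 and 8.43, a difference of -0.31 (adjusted p = 0.894). The first probe set was thus high only on the MOLF arrays, while the other two overlapped with the rest. The ratio of 160163_at to 97713_at had a mean of -1.54 in MOLF and of 2.92 over the other 7 arrays on the log2 scale. The latter mean is a lower bound, since 97713_at was at the floor on 5 of those 7 arrays. The difference of -4.46 is thus a bound on its size, as is that of -3.85 for the ratio of 94312_at to 97713_at, and no error is given for either.

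Map3k1, a kinase at the head of stress-activated cascades, showed the same form. Its probe set 103022_at read 6.50 on MOLF A and 6.59 on MOLF B and was at the floor on all 7 other arrays, at least 3.46-fold higher. The filter kept it only through the 2 MOLF arrays, so it had to differ to be tested, and its adjusted p of 0.0123 is not support. The probe set 103020_s_at read 8.72 and 9.15, against 8.69, 9.21 and 9.47, a difference of -0.20 (adjusted p = 0.891), and 103021_r_at read 8.63 and 6.81, against 6.16, 6.94 and 7.94, a difference of 0.80 (adjusted p = 0.844). Only the dimmest of the 3 probe sets separated MOLF from the others. The ratio of 103020_s_at to 103022_at differed by -2.0, a bound on its size, and did not pass (adjusted p = 0.0664). For C1qtnf1, 161549_f_at was higher by 1.89 (adjusted p = 0.309) and 162487_f_at by 0.40 (adjusted p = 0.758), and all 3 of its probe sets had both MOLF arrays above the other 7. For Ctse, the third probe set, 104696_at, was near the floor, at 5.22 and 5.44 in MOLF against 4.75, 5.14 and 5.70 elsewhere (difference 0.15, adjusted p = 0.908). For Krt19, 102121_f_at had a difference of -0.68 (adjusted p = 0.866), close to the floor. For Notch4, an endothelial receptor, 93928_f_at was lower by 1.42 ± 0.19 (SE; adjusted p = 0.0354) at readings of 9.89 and 9.50. It overlapped with ILn B (9.60), and the difference was -0.20 against ILn, -0.92 against FVBn, -1.86 against NZB and -2.46 against LP. Its other probe set, 92652_at, was at the floor on both MOLF arrays and at 5.79 at most elsewhere (difference -0.33). The far brighter 93928_f_at carries the suffix of sequence families, so sequences other than Notch4 may share its signal. For Myh4, 161545_r_at had a difference of 0.37 beside the -2.28 of 98488_at, and their ratio passed (difference 2.65, adjusted p = 0.0449), with FVBn B beyond MOLF in the same direction.

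**Figure D4:**
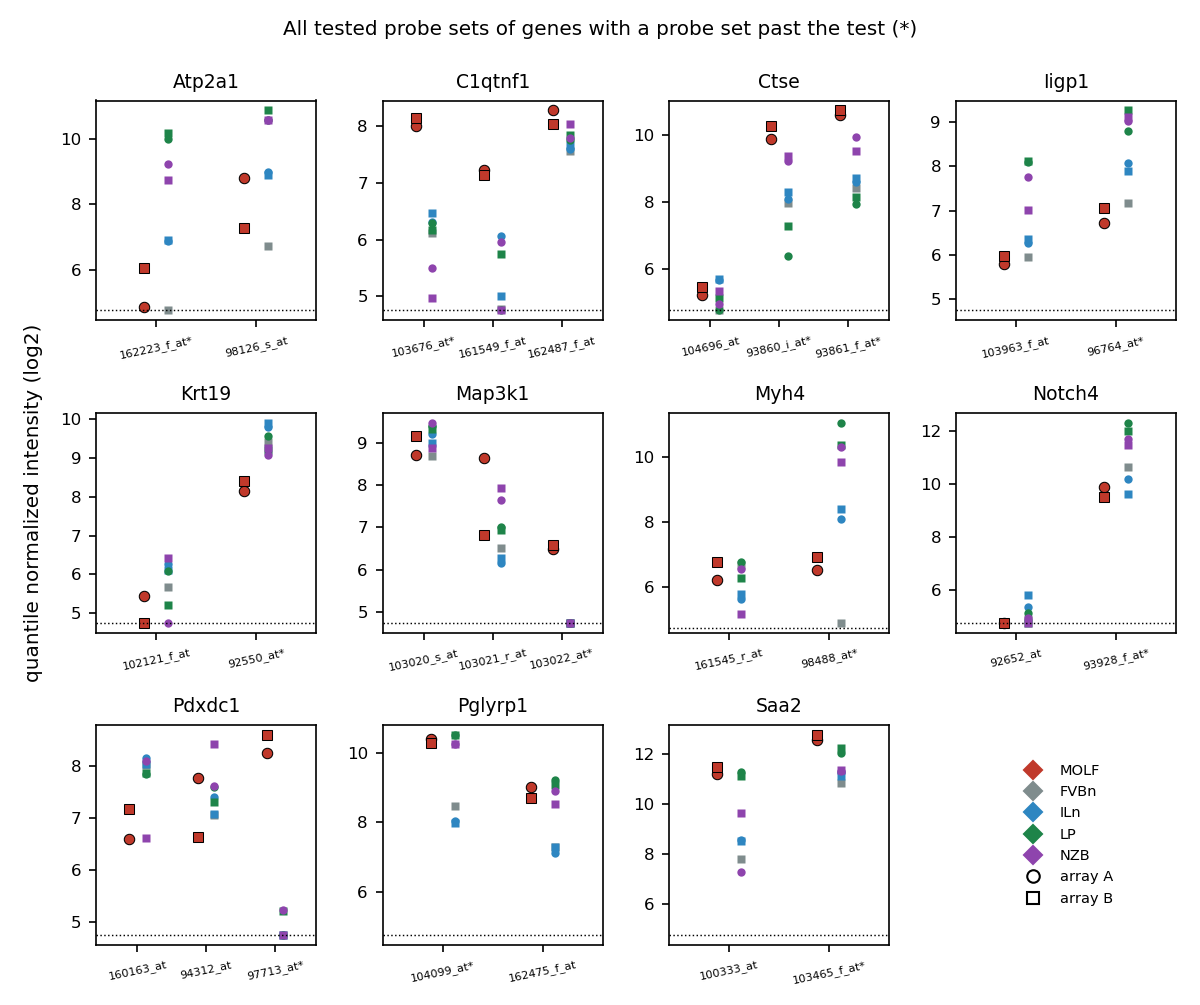
Quantile normalized intensity (log2, vertical axes) of every tested probe set of the 11 genes that had a probe set past the test (asterisk) and at least 1 other tested probe set, with MOLF arrays on the left and the other 7 on the right of each probe set and the floor as a dotted line. In Pdxdc1 only 97713_at sets the MOLF arrays (8.25 and 8.60) apart, while in C1qtnf1 all 3 probe sets have MOLF on top.

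Over 2019 pairs of probe sets from 1418 genes, 3 ratios (0.149%) passed in MOLF, 2 of them from Pdxdc1, both bounded by the floor, and 1 from Myh4. The same contrast gave 4 pairs (0.198%) for ILn, and 0 for LP (70 pairs at an unadjusted p under 0.05) and 0 for NZB (154 pairs), against 74 such pairs for MOLF. These contrasts share arrays with the MOLF comparison. The median size of the ratio difference was 0.30 in MOLF, 0.35 in ILn, 0.29 in LP and 0.42 in NZB. Pairs whose ratio differed by more than 1 with no overlap numbered 24 in MOLF, 50 in ILn, 41 in LP and 57 in NZB. MOLF thus had the fewest of these, and its median lay between those of LP and ILn. The SD of the difference between the 2 arrays of a strain was 0.86 in MOLF and 0.91 in NZB, against 0.38 in ILn and 0.47 in LP.

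One probe set of a pair had both MOLF arrays below the other 7 while the partner overlapped in 93 pairs, and above in 79 pairs. The counts of such pairs were 104 and 160 for ILn, 67 and 108 for LP, and 166 and 112 for NZB. Both probe sets lay beyond the others in the same direction in 11 pairs for MOLF, against 14 for ILn, 14 for LP and 10 for NZB. Those of MOLF came from Actn1, Cpe, Cyb5r1 and H2-D1 (below) and C1qtnf1, Cpd, Ctse, Gtf3c4 and Pkp1 (above). Cpe, carboxypeptidase E, which trims peptide hormones, had differences of -1.23 and -1.51, and Pkp1, plakophilin 1 of the desmosome, 0.83 and 1.76, none past the test by itself. By probe set kind, 10 of 866 probe sets with the family suffix f passed (1.15%), against 28 of 7831 with no suffix (0.358%) and 0 of 301 with the suffix s, in which probes are shared by several transcripts.

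The remaining lists had few or no calls. Among 18 endothelial genes 1 passed as lower, Notch4 (by the family probe set 93928_f_at), with a list median of -0.25. Among 15 casein and milk protein genes 1 passed as lower, Ltf, with a median of -0.03. No gene passed among 50 fibroblast and matrix genes (median -0.15), 46 cell cycle genes (0.06), 43 genes of the mitochondrial respiratory chain (0.10), 28 heat shock genes (-0.07), 27 metastasis modifiers and markers (-0.01), 22 glycolysis and hypoxia genes (-0.16), 20 immediate early genes (0.02), 20 adipocyte genes (0.00), 16 B cell genes (-0.03) and 11 erythroid genes (-0.09). Some of their members had both MOLF arrays beyond the others without passing. Gadd45b, a stress-induced regulator of growth arrest, read 9.10 and 7.52 in MOLF, against 5.64 to 6.62 elsewhere (difference 2.14, adjusted p = 0.193). Another tested Gadd45b probe set went the other way, with a difference of -0.59. The ratio of the pair differed by 2.73 and did not pass (adjusted p = 0.666 by limma). Ccnd1, cyclin D1, read 9.90 and 9.42, against 8.90 to 9.20 (difference 0.64, adjusted p = 0.331). Eln, elastin, read 8.14 and 8.88, against 9.40 at the lowest elsewhere (difference -1.10, adjusted p = 0.197). Btn1a1, butyrophilin of the milk fat globule, read 7.06 and 8.13, against 8.61 to 9.53 (difference -1.40, adjusted p = 0.193).

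The comparison strain mattered for direction and size. Among the 27 lower probe sets, the strain mean nearest to MOLF was that of FVBn for 15, ILn for 5, NZB for 4 and LP for 3, and the farthest was LP for 17. Among the 14 higher probe sets, the nearest was NZB for 8. The 33 genes, out of 7098 tested, were spread over the chromosomes. Chromosomes 11 and 7 had 5 each (0.8% and 0.874% of the genes tested on them). Chromosomes 2 and 17 had 4 each (0.721% and 1.01%). Over all probe sets tested, 0.414% passed. The 4 on chromosome 17, which carries the mouse MHC, were H2-Eb1, H2-K2, Notch4 (by the family probe set 93928_f_at) and D17H6S56E-5. D17H6S56E-5 was higher by 1.64 ± 0.18 (SE; adjusted p = 0.0208), at 10.42 and 10.03 in MOLF, against 6.13 (FVBn B), 9.96 and 10.45 (NZB A), so that MOLF differed by -0.18 from LP and by 0.02 from NZB and stood 4.09 above FVBn and 3.85 above ILn.

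Array titles carry dates, and MOLF A shared its date with LP A only, while MOLF B shared its date with FVBn B, ILn B, LP B and NZB A. Within these dates the differences had the same sign for 13 of the 14 higher and 25 of the 27 lower probe sets. The by-date differences reuse the arrays on which these probe sets were selected, so this agreement is largely set by the selection and is not support. H2-Eb1 was at -3.57 within the date of MOLF B and at -3.90 within that of MOLF A, Scgb1b27 at -3.07 and -2.48, B2m at -1.46 and -1.76, Ctse (93861_f_at) at 1.92 and 2.64, and Pdxdc1 (97713_at) at 3.61 and 3.50. These 5 genes differed in the same direction at both dates, and they too are among those selected on these arrays. With title date as a block, 8 probe sets passed: Acta1, Saa2, B2m, Ctse (93861_f_at), H2-Eb1, Scgb1b27 and 2 with no single gene symbol. Pglyrp1 was at 0.97 and -0.11 within the dates of MOLF B and MOLF A. The median of the interferon list was -0.44 within the date of MOLF B and -1.36 within that of MOLF A, where LP A is the only partner.

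**Figure D5:**
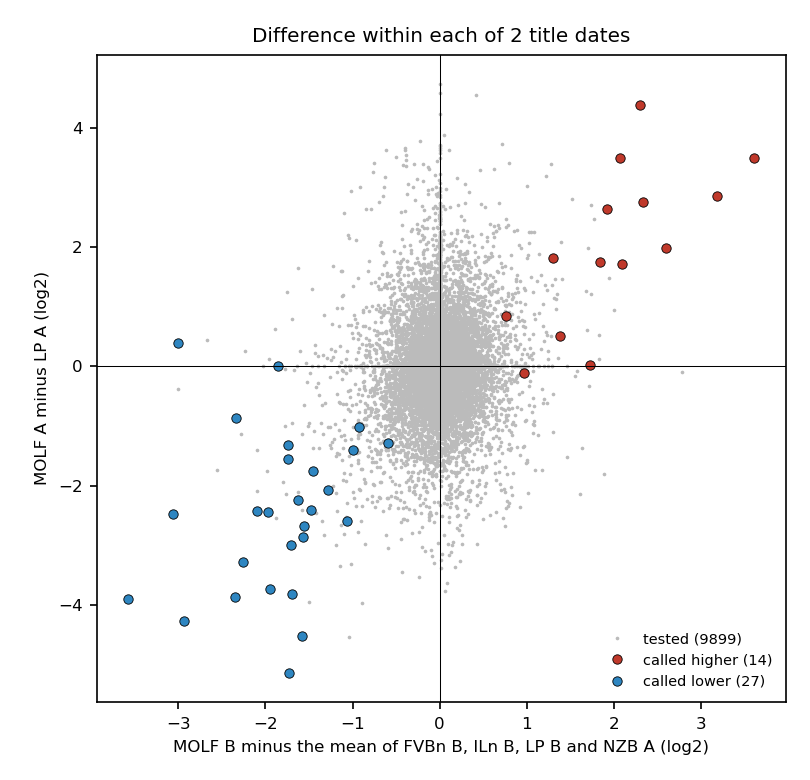
Difference of MOLF from the other arrays within each of 2 title dates (log2), MOLF B minus the mean of FVBn B, ILn B, LP B and NZB A on the horizontal axis and MOLF A minus LP A on the vertical axis, for 9899 tested probe sets (grey), the 14 that passed as higher (red) and the 27 that passed as lower (blue). The same sign appears at both dates for 13 of the red and 25 of the blue points, which were selected on these same arrays.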

How the data were processed

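The deposited values are linear intensities, with 1 reading per array for each probe set. The way the authors summarised probes was not given in the sources used here. Trimmed by 2% at each end, the array mean was 150.1 except on ILn A (500.2). Of 12488 probe sets, 66 controls were left out, and the 9 strain arrays were quantile normalized as log2 intensity, computed here from the deposited intensities, in R 4.3.3 with limma 3.58.1. Values under the 30th percentile (27.0) were raised to it, and 9899 of 12422 probe sets above this floor in at least 2 arrays were tested. By the platform annotation, 10855 probe sets had 1 symbol, 396 had several and 1237 had none, and 10839 matched the RefSeq table of GRCm38.p6. Several or no symbols left a probe set unnamed.

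The model (lmFit, eBayes with an intensity trend) had a mean for each of 5 strain names and 4 residual degrees of freedom, and all strains shared 1 spread, with the single FVBn array assumed to vary like the rest. The contrast was the MOLF mean minus the mean of the 7 other arrays, weighted by array, with Benjamini-Hochberg adjustment over all probe sets. Ratios of probe sets of a gene used the same model on within-array log2 differences. A list took the brightest probe set of each gene. Genes named were those of largest difference, at most 12 in each direction, among single-symbol probe sets past the test with no overlap, H2-Eb1, Scgb1b27, B2m, Ctse and Pdxdc1, up to 5 passing members of a list (else 2), the leading pairs, and some others chosen after their values were seen. One probe set annotated to a microRNA gene is not reported, as its symbol could not be matched to a mature sequence. Where a MOLF or other group is at the floor on all arrays, its fold is a bound. The members and lists were chosen with earlier results of these data known. The code was tested on simulated data. Alternatives were another normalization, filters, floor, weights, models and blocks, and leaving out each array. The number of arrays limits the precision.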

Additional observations from a re-analysis of the deposited data

How the results depend on the processing

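The 19 alternative settings reuse the arrays on which the 41 probe sets were selected. Agreement in direction is thus largely set by the selection and is not support. The 41 probe sets kept their direction in all of these settings in which each was tested, and 11 passed in more than 50% of them. Their number was 4 (2 higher, 2 lower, against 14 and 27) with median centring, 101 with no filter on dim probe sets (29 of the 41 among them), 7 in the 2 group model, 15 with array weights, 8 with title date as a block and 0 without MOLF A and NZB B (813 probe sets at an unadjusted p under 0.05 in limma). It ranged from 6 to 43 when each array was left out. With the replicate block (array letter) it was 20, and the letters did not pair the arrays: deviations of the A arrays correlated between strains from -0.707 to 0.131. The 3 probe set ratios became 15 with no filter, 0 with the filter at 5 arrays (58 at an unadjusted p under 0.05), 1 with equal strain weights, 1 with array weights, 0 with title date as a block (44 at an unadjusted p under 0.05), 1 with the replicate block, and 0 to 3 when each array was left out. The causes of these changes were not tested.

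The medians of 12 of the 24 lists changed sign under at least 1 alternative, and for 9 of these the median was smaller than the spread between arrays of a strain (adipocyte, B cell, casein, cell cycle, erythroid, immediate early, metastasis, ribosomal, and T and NK cell lists). The other 3 were those of the mammary list (0.08; -0.070 with median centring, -0.044 without MOLF A and NZB B, and -0.026 to 0.14 when each array was left out, with the negative values coming without MOLF A or NZB B), the mitochondrial list (0.10; -0.082 with median centring) and the urinary and secretoglobin list (-0.46; 0.32 with the floor at the 10th percentile). Probe sets at the floor give bounds only, and 1 probe set per gene left 22 of 33 genes without a second reading.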
